A study of Mus musculus with 6 samples.

Results

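The 26S proteasome is the protease that degrades ubiquitin-tagged proteins, and its subunit genes were followed here in neural stem cells with and without cadmium. The members were the protein-coding genes of the deposited table named Psma, Psmb, Psmc or Psmd with a number, leaving out Psmb8, Psmb9 and Psmb10, which encode the inducible immunoproteasome subunits, and Psmb11, which encodes the thymus subunit. This rule, which uses no measured value, gave 35 of 25241 genes, with 15 core members (Psma and Psmb) and 20 regulatory members (Psmc and Psmd). The cells were primary neural stem cells of wild-type mice, isolated from the subgranular zone of the hippocampus, the neurogenic niche of the dentate gyrus, and used at passage 3. Of the 6 libraries, 3 came from cells given 0.8 μM cadmium chloride (CdCl2) for 72 h and 3 from untreated cells. The labels call the replicates biological without naming separate animals or platings, so each p-value reflects only the variation among these libraries, which may be partly technical. The mRNA-enriched libraries held 37710042 to 41523231 counts each. Expression was measured in bulk, in which a change in the kinds of cell present and a change of RNA within each cell cannot be told apart.

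The 26S particle joins a barrel-shaped 20S core to 1 or more 19S regulatory particles. In the core, outer rings of alpha subunits form the gate and inner rings of beta subunits hold the cutting sites. The regulatory particle has a base, whose ATPases unfold the substrate and thread it into the core, and a lid, which removes the ubiquitin chain. In mammals the subunit genes are known to be raised together by the transcription factor encoded by Nfe2l1 when proteasome activity falls short. Cadmium binds thiol groups of proteins and is known to disturb protein folding and redox balance.

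Proteasome subunit transcripts were modestly higher in the cadmium-treated cells. Of the 34 members tested, 20 rose, 0 fell and 14 did not pass the test (edgeR quasi-likelihood test, adjusted p below 0.05 over all genes tested). Among all 14369 genes tested, 23.1% rose and 22.4% fell, 45.5% in all. No member fell at an unadjusted p below 0.05 either, and DESeq2 and limma also called 0 lower, with 19 and 20 called higher. The log2 fold changes of cadmium over control were positive for 32 of the 34 members, with a range from -0.06 to 0.33 and a median of 0.14, a rise of 10.1%. The median over all genes tested was -0.01. Among the 4738 genes whose mean reached 50 CPM (counts scaled by TMM to the same library size), the range in which most members lie, 31.7% rose, 25.1% fell and the median was 0.02. Every cadmium library lay above every control library for 25 of 34 members, below for 0, and the groups overlapped for 9. Over all genes tested, 28% had every cadmium library above and 28.3% had every one below.

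**Figure D1:**
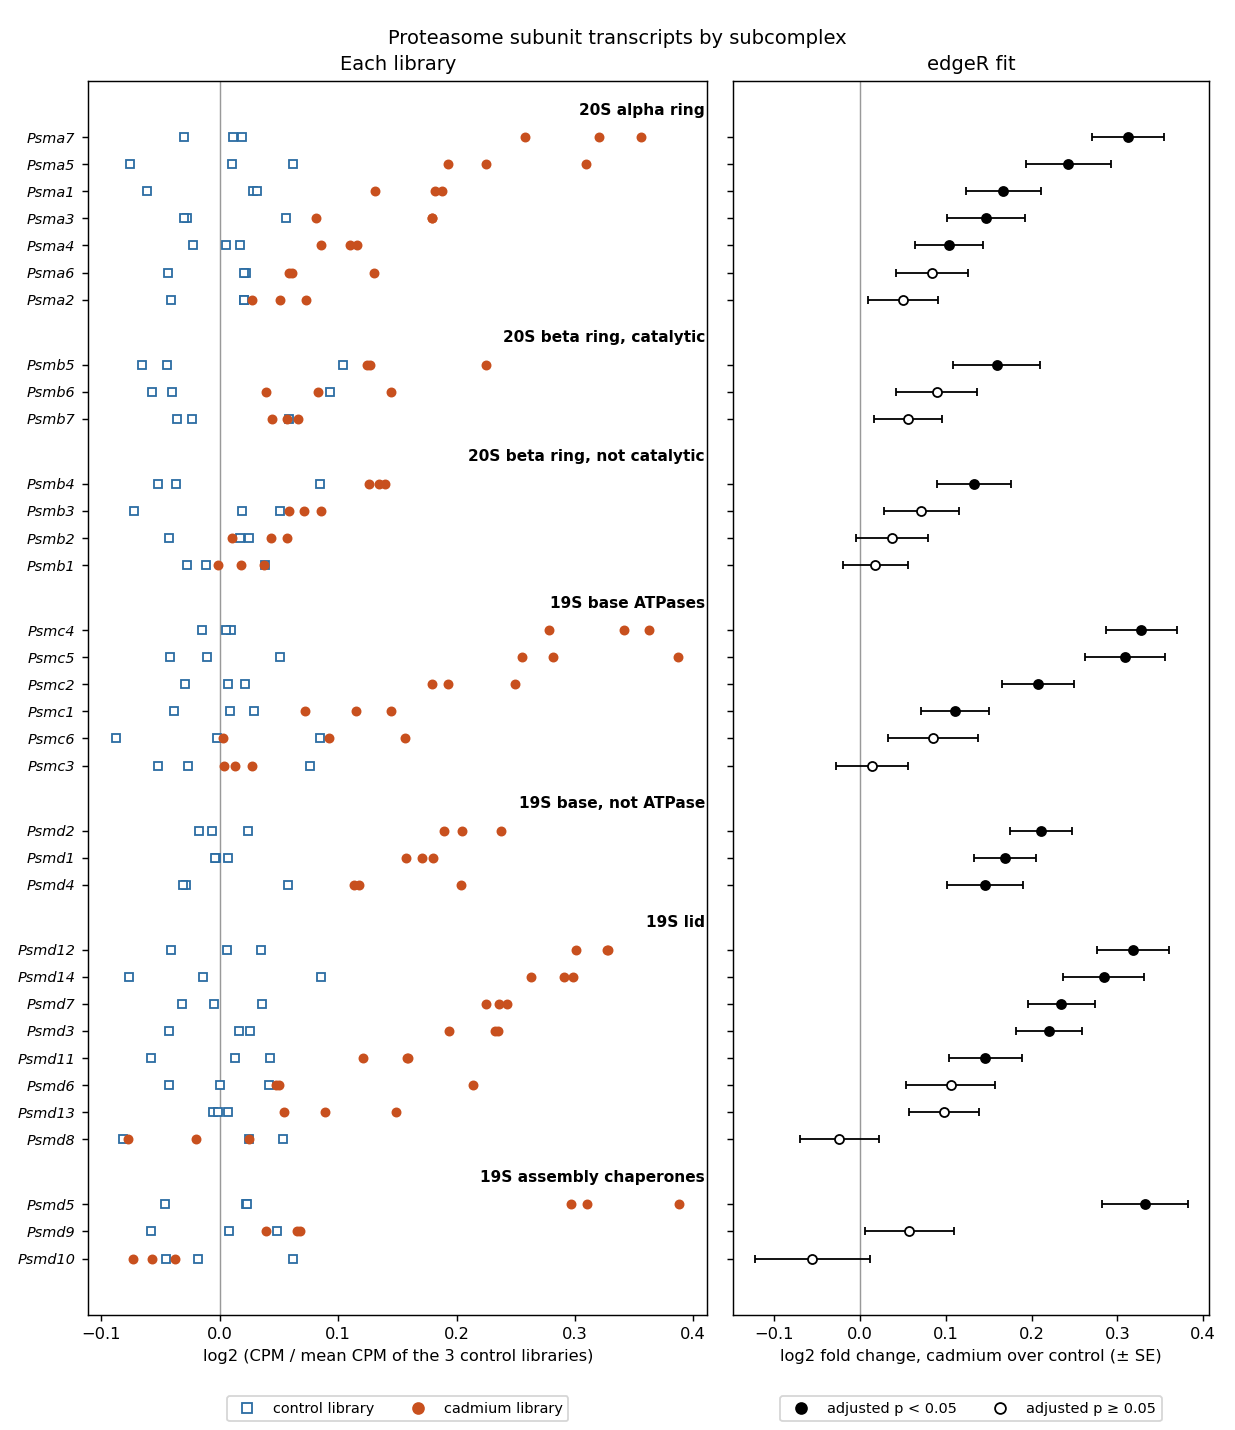
Each row is a member, grouped by subcomplex. The left panel plots each library's CPM relative to the mean of the 3 control libraries on a log2 scale, and the right panel plots the edgeR log2 fold change of cadmium over control with its standard error. Filled points in the right panel passed the test, and the largest changes, in Psmd5 and Psmc4, are 0.33.

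Psma8, a testis-type variant of an alpha subunit, was the only member that did not pass the filter on low counts. It had 0, 0 and 1 counts in the control libraries and 1, 2 and 2 in the cadmium libraries. These counts lie at or under the 3 counts that a count of 0 allows, so no fold is given.

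Promoter sequence is shown for the members with the clearest rise in the core and in the regulatory particle and for those that hold the core letters of an antioxidant response element, the element bound by the Nfe2l1 and Nfe2l2 factors. RefSeq windows of 300 bases, 250 before and 50 after the start of transcription, were found for 28 of the 35 members in build GRCm38.p6, which is older than the build named by the submitters. The letters searched on both strands were TGACNNNGC for the antioxidant response element core and CCAAT for the CCAAT box, the site of the factor NF-Y. In the printed stretches, which lie before the start site and run 5′ to 3′ along the gene, capitals mark a motif. Psma7 and Psmc4 had the smallest p-values among core and regulatory members. The Psma7 stretch holds a CCAAT box and the Psmc4 stretch holds neither motif.
Psma7, chr2:180042616-180042700, minus strand: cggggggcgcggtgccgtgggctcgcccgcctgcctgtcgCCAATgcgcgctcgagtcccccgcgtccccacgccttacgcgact
Psmc4, chr7:28050093-28050192, minus strand: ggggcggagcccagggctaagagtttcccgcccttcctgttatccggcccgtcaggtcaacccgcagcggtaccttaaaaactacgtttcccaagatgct
Psmb5, chr14:54617996-54618082, minus strand: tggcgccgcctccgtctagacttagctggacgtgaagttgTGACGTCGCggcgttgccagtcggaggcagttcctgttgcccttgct
Psmb6, chr11:70525308-70525356, plus strand: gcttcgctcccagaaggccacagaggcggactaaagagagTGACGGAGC
Psmc6, chr14:45329574-45329645, plus strand: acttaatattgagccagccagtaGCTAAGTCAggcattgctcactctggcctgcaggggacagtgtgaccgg
Psmd9, chr5:123228119-123228189, plus strand: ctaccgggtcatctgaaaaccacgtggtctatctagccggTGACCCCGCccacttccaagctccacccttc
Psmd12, chr11:107479278-107479329, plus strand: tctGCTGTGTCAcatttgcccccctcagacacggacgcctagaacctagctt

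The antioxidant response element core was found in 5 of 30 member windows (16.7%), those of Psmb5, Psmb6, Psmc6, Psmd9 and Psmd12, and in 12.4% of all 32851 RefSeq windows. In Psmc6 and Psmd12 it reads on the opposite strand. A CCAAT box was found in 11 of 30 member windows (36.7%) and in 37.4% of all windows, and no member held both. Of the 5 members with the antioxidant element letters 2 rose, Psmb5 and Psmd12. Of the 11 with a CCAAT box 7 rose, and of the 12 with a window and neither motif 9 rose. A match of letters is a description and not a site of binding.

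In the alpha ring, 5 of 7 tested members rose and every cadmium library exceeded every control library for all 7, with a median log2 fold change of 0.15. Psma7 (Entrez 26444) moved most among core members. Its level was 135, 130.1 and 134 CPM in the control libraries and 159, 170.2 and 166 CPM in the cadmium libraries, with means of 133 ± 2.44 and 165 ± 5.67 CPM (SD, n = 3 each). The groups are well apart, and the log2 fold change was 0.31 ± 0.04 (SE, adjusted p = 3.3e-05). Psma5 (Entrez 26442) had 90.5, 85.2 and 93.7 CPM in control cells and 103, 111 and 105 CPM in cadmium-treated cells, a log2 fold change of 0.24 ± 0.05 (adjusted p = 0.0010). Psma1 (Entrez 26440) had 115, 115 and 108 CPM against 123, 128 and 128 CPM, a change of 0.17 ± 0.04 (adjusted p = 0.0058). In both genes the lowest cadmium library was above the highest control library. Psma3 and Psma4 rose by less, with log2 fold changes of 0.15 ± 0.05 (adjusted p = 0.016) and 0.10 ± 0.04 (adjusted p = 0.044). Psma6, at 0.08 ± 0.04 (adjusted p = 0.12), and Psma2, at 0.05 ± 0.04 (adjusted p = 0.33), did not pass the test. The call of Psma4 was lost in 11 of 15 alternative analyses, among them the removal of any 1 library (adjusted p = 0.058 to 0.12). That of Psma3 was lost without cadmium replicate 1 or 2 or control replicate 2 (adjusted p = 0.061 to 0.070).

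In the beta ring, 1 of 3 catalytic members and 1 of 4 non-catalytic members rose, with median log2 fold changes of 0.09 and 0.05. These counts are near the share that rose among all genes tested (23.1%) and among those of 50 CPM or more (31.7%). Psmb5 (Entrez 19173), which carries the chymotrypsin-like site, had 135, 133 and 149 CPM in the control libraries and 152, 162 and 152 CPM in the cadmium libraries. Its means were 139 ± 9.07 and 155 ± 6.20 CPM, and its log2 fold change was 0.16 ± 0.05 (adjusted p = 0.018). The third control library came close to the cadmium libraries. Psmb6 (Entrez 19175), with the caspase-like site, had 180.0, 178 and 197 CPM against 190.2, 205 and 196 CPM, and its groups overlapped at a log2 fold change of 0.09 ± 0.05 (adjusted p = 0.14). Psmb7 (Entrez 19177), with the trypsin-like site, had 203, 205 and 217 CPM against 215, 216 and 218 CPM and also overlapped, at 0.06 ± 0.04 (adjusted p = 0.27). Among the structural beta subunits, Psmb4 (Entrez 19172) went up from 193 ± 10.2 to 212 ± 0.982 CPM (log2 fold change 0.13 ± 0.04, adjusted p = 0.021). Psmb1 (Entrez 19170), another structural subunit, had 223, 226 and 234 CPM against 227, 233 and 230.3 CPM, and its groups overlapped (log2 fold change 0.02 ± 0.04, adjusted p = 0.73). Psmb2 and Psmb3 did not pass the test, with log2 fold changes of 0.04 ± 0.04 and 0.07 ± 0.04. Psmb4 no longer passed when any 1 library other than control replicate 3 was left out (adjusted p = 0.060 to 0.096), and neither did Psmb5 without cadmium replicate 2, control replicate 1 or control replicate 2 (adjusted p = 0.060 to 0.094).

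Control replicate 3 was the highest control library for 6 of 7 beta members, against 1 of 7 tested alpha members and 6 of 20 regulatory members. How often it was the highest over all genes was not counted. Without that library the log2 fold changes were 0.21 ± 0.04 for Psmb5 (adjusted p = 0.00028), 0.14 ± 0.04 for Psmb6 (adjusted p = 0.0065) and 0.09 ± 0.03 for Psmb7 (adjusted p = 0.051). A fold change generally rises when the highest control library is left out, so these values give no support for a beta change. Some other changes became smaller, with 0.14 for Psma1, 0.04 for Psmc6 and 0.25 for Psmd14. The median over all members was 0.14 with and without that library. The difference of the medians, core minus regulatory, was -0.06 in both cases. The same library stood apart over the whole table: its chi-square statistic per degree of freedom was 11.8 and 12.8 against the other control libraries, which differed from each other by 5.12.

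Of the base ATPases 4 of 6 rose, with a median log2 fold change of 0.16. Psmc4 (Entrez 23996) had 119, 119 and 117 CPM in the control libraries and 144, 150.3 and 153 CPM in the cadmium libraries. Its means were 119 ± 1.08 and 149 ± 4.51 CPM, a rise of 25.5%, with a log2 fold change of 0.33 ± 0.04 (adjusted p = 1.9e-05). Psmc4 had the smallest p of all members. Psmc5 (Entrez 19184) had 129.6, 122 and 124 CPM against 149, 164 and 152 CPM, which gives a log2 fold change of 0.31 ± 0.05 (adjusted p = 8.4e-05). Psmc2 (Entrez 19181) had 114, 117 and 118 CPM against 132, 139 and 133 CPM, a change of 0.21 ± 0.04 (adjusted p = 0.00090). The groups did not overlap in any of these genes. Psmc1 rose by less, at 0.11 ± 0.04 (adjusted p = 0.032). Psmc6, at 0.09 ± 0.05 (adjusted p = 0.20), and Psmc3, at 0.01 ± 0.04 (adjusted p = 0.80), overlapped between groups. Psmc1 no longer passed without cadmium replicate 2 or 3 or control replicate 1 (adjusted p = 0.11 to 0.12) and with upper-quartile scaling (adjusted p = 0.052).

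The 3 other base members rose. Psmd2 (Entrez 21762), a scaffold that also binds the ubiquitin-like domains of shuttle receptors and of Usp14, had 407, 396 and 399 CPM in the control libraries and 457, 472 and 462 CPM in the cadmium libraries, a log2 fold change of 0.21 ± 0.04 (adjusted p = 0.00028). Psmd1 (Entrez 70247), the other large scaffold, went up from 249.5 ± 1.06 to 281 ± 2.17 CPM (log2 fold change 0.17 ± 0.04, adjusted p = 0.0015). Psmd4 (Entrez 19185), a ubiquitin receptor, went up from 136 ± 4.80 to 150.1 ± 5.37 CPM (log2 fold change 0.15 ± 0.04, adjusted p = 0.014). Psmd4 no longer passed without cadmium replicate 3 (adjusted p = 0.098) or control replicate 2 (adjusted p = 0.059). In Psmd2, Psmd1 and Psmd4 every cadmium library exceeded every control library.

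Of the lid members 5 of 8 rose, with a median log2 fold change of 0.18. Psmd12 (Entrez 66997), a scaffold subunit of the lid, had 98.0, 99.9 and 94.8 CPM in the control libraries and 122, 122 and 120.2 CPM in the cadmium libraries. Its means were 97.6 ± 2.59 and 122 ± 1.27 CPM, and its log2 fold change was 0.32 ± 0.04 (adjusted p = 2.9e-05). Psmd14 (Entrez 59029), the deubiquitinase of the lid, had 110.2, 103 and 98.5 CPM against 128, 127 and 125 CPM, which gives a log2 fold change of 0.28 ± 0.05 (adjusted p = 0.00020). Psmd7 (Entrez 17463), which pairs with Psmd14 in the particle, had 156, 161 and 153 CPM against 183, 185 and 184 CPM, a change of 0.23 ± 0.04 (adjusted p = 0.00021). The enzyme, its partner and the scaffold each had all cadmium libraries above all control libraries. Psmd3 and Psmd11, further scaffold subunits, rose by 0.22 ± 0.04 (adjusted p = 0.00030) and 0.15 ± 0.04 (adjusted p = 0.011) on the log2 scale. Psmd6, at 0.11 ± 0.05 (adjusted p = 0.11), and Psmd13, at 0.10 ± 0.04 (adjusted p = 0.064), were higher in every cadmium library without passing the test. Psmd11 no longer passed without control replicate 1 (adjusted p = 0.055), and Psmd13 passed without control replicate 3 (adjusted p = 0.046). Psmd6 had a log2 fold change of 0.05 (adjusted p = 0.46) without cadmium replicate 2. With no filter on low counts Psmd6 (adjusted p = 0.046) and Psmd13 (adjusted p = 0.045) both passed. Psmd8 had 171, 187 and 184 CPM against 171, 184 and 178 CPM, and its groups overlapped (log2 fold change -0.02 ± 0.05, adjusted p = 0.70).

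The remaining regulatory members, Psmd5, Psmd9 and Psmd10, encode chaperones that help to assemble the base and are not part of the finished particle. Psmd5 (Entrez 66998) had the largest log2 fold change of all members. It had 50.2, 52.6 and 52.7 CPM in the control libraries and 64.3, 67.8 and 63.7 CPM in the cadmium libraries, a change of 0.33 ± 0.05 (adjusted p = 8.3e-05) with no overlap. Psmd10 (Entrez 53380) had the lowest, with 22.1, 20.9 and 20.6 CPM against 20.4, 20.2 and 20.7 CPM, overlapping groups and a change of -0.06 ± 0.07 (adjusted p = 0.53). Psmd9 had 42.6, 44.6 and 45.9 CPM against 45.6, 46.4 and 46.5 CPM, which also overlapped (log2 fold change 0.06 ± 0.05, adjusted p = 0.39). Without these chaperones 12 of 17 regulatory members rose, with a median of 0.17.

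The median change was larger for regulatory than for core members, within overlapping ranges. In the core 7 of 14 tested members rose, with a median log2 fold change of 0.10 (6.93%) and a range of 0.02 to 0.31. Within the core the alpha ring had a median of 0.15, close to that of the regulatory members. The lower values were those of the beta ring, with medians of 0.09 for catalytic and 0.05 for other members. In the regulatory particle 13 of 20 rose, with a median of 0.16 (11.5%) and a range of -0.06 to 0.33. The ranges overlap almost fully, and the difference of the medians was -0.06 for core minus regulatory. The count for the core depends on single libraries. It was 3 without cadmium replicate 2 or control replicate 2 and 4 without cadmium replicate 1 or control replicate 1. Of all genes tested, 19.1% and 20.9% rose in the former fits and 19.7% and 21.3% in the latter. With 3 of 14 the core count was close to the share of all genes. The regulatory count stayed between 11 and 14 of 20.

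In single libraries, the core median deviation from each gene's mean over the 6 libraries was -0.06, -0.09 and -0.0029 in the controls and 0.05, 0.08 and 0.04 in the cadmium libraries on the log2 CPM scale. The regulatory median deviation was -0.09, -0.08 and -0.09 in the controls and 0.08, 0.11 and 0.10 in the cadmium libraries. The difference of core minus regulatory was therefore 0.03, -0.01 and 0.09 in the controls, a mean of 0.03 ± 0.05 (SD, n = 3), and -0.03, -0.03 and -0.06 with cadmium, a mean of -0.04 ± 0.02. The cadmium libraries lay below the controls without overlap, by a margin smaller than the spread of the controls. No p is given for this difference, since the members were chosen with results of these data known. The summed level of the core members was 2029.6, 2008 and 2101 CPM in the controls and 2181, 2254 and 2197 CPM with cadmium. The summed level of the regulatory members was 2949, 2969.5 and 2965 CPM in the controls and 3284, 3373 and 3335 CPM with cadmium. Both sums were higher in every cadmium library than in any control library.

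**Figure D2:**
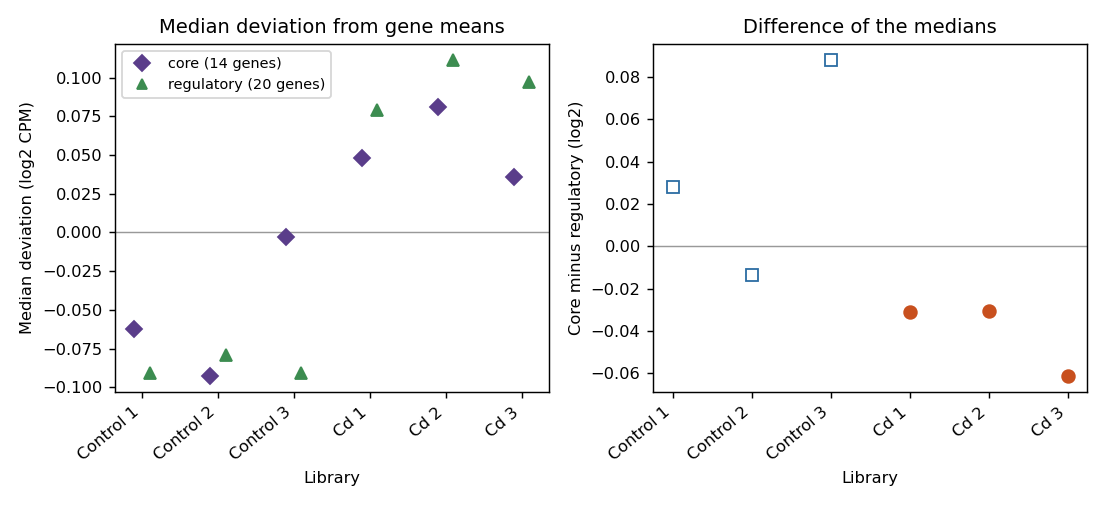
The left panel plots, for each of the 6 libraries, the median deviation of log2 CPM from each gene's mean for the 14 core and 20 regulatory members tested. The right panel plots core minus regulatory on the same log2 scale, which lies below 0 in the 3 cadmium libraries and between -0.01 and 0.09 in the 3 control libraries.

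Levels between genes were compared in FPKM, which divides by gene length. In control cells the 31 members of the finished particle that were tested spanned from 35.0 FPKM (Psma3) to 220.1 FPKM (Psmb1), a ratio of 6.29, with a median of 101 FPKM. In cadmium-treated cells they spanned from 38.5 (Psma3) to 223 FPKM (Psmb4), a ratio of 5.79, with a median of 115 FPKM. The SD of log2 FPKM over these genes was 0.66 in control and 0.62 in cadmium-treated cells, several times the median change of 0.15 over the same genes. The catalytic members stood high and close together, at 197, 165 and 159.9 FPKM for Psmb7, Psmb6 and Psmb5 in control cells. The ATPases, which are present in equal number in the particle, ran from 51.4 FPKM for Psmc6 to 148 FPKM for Psmc1. The chaperone transcripts lay lowest, at 25.3 FPKM for Psmd5, 17.2 for Psmd9 and 14.6 for Psmd10. The length in the FPKM of Psma3, the lowest of these 31, is 3325 bases, against 946 to 1591 for the other tested alpha members. That of Psmc6, the lowest ATPase, is 2353 bases, against 1277 to 1793 for the other ATPases. In CPM, Psmc6 (121) was level with Psmc2 (117) and Psmc4 (119) in control cells. The median FPKM of the core members was 141 ± 3.04 in control and 145 ± 2.04 in cadmium-treated cells. That of the regulatory members, chaperones included, was 79.8 ± 1.23 and 91.3 ± 1.25 (SD, n = 3 each). For the 17 regulatory members without the chaperones, the median of the gene means was 90.9 FPKM in control and 103 FPKM in cadmium-treated cells.

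**Figure D3:**
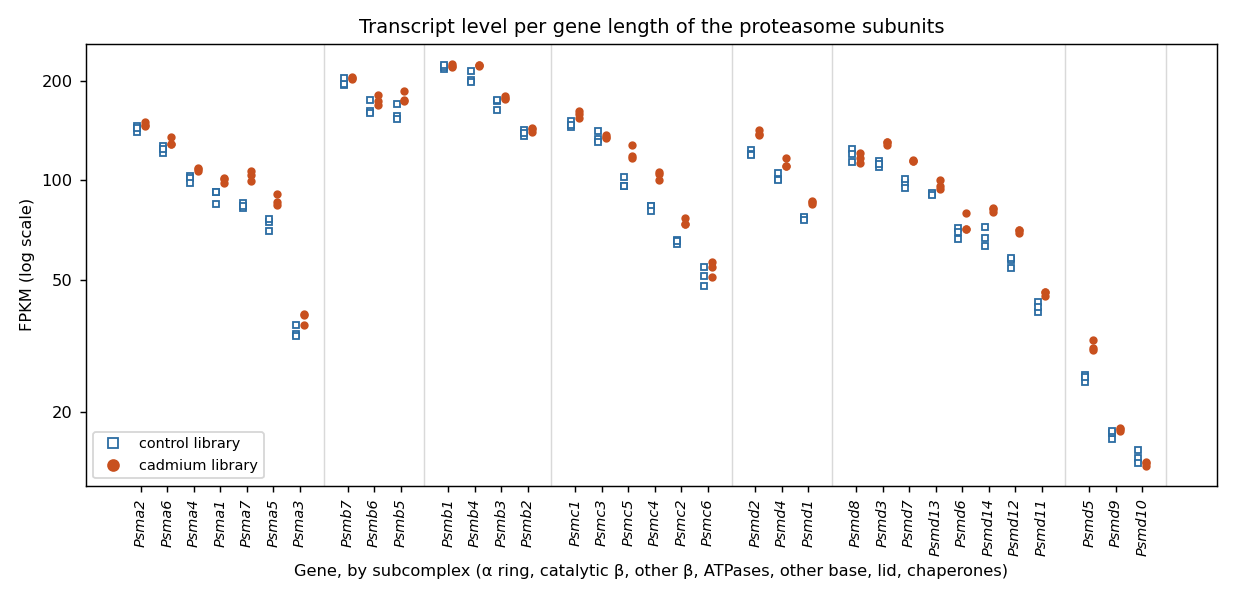
Level of each tested member in FPKM on a log axis, by subcomplex and ordered by control level, with 1 point for each of the 3 control and 3 cadmium libraries. Subunits of 1 particle differ by up to 6.29-fold in control cells, and the chaperones lie lowest.

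Subunits of the particle that carry other names split. Adrm1, a ubiquitin receptor held by the base, went up from 89.3 ± 1.80 to 109 ± 5.69 CPM (log2 fold change 0.29 ± 0.05, adjusted p = 0.00017). Sem1, a small lid subunit, had 106 ± 5.18 CPM in control and 106 ± 2.39 CPM in cadmium-treated cells (adjusted p = 0.97), and the sign of its change depended on the scaling.

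The immunoproteasome subunits, which replace the catalytic members in immune and stressed cells, went the other way: 2 of 3 tested fell and 0 rose, by edgeR, DESeq2 and limma and also at an unadjusted p below 0.05. Of all genes tested, 22.4% fell by edgeR. Psmb9, which takes the place of Psmb6, had 3.83, 4.59 and 4.42 CPM in the control libraries and 3.03, 2.66 and 2.71 CPM in the cadmium libraries. It fell by 0.61 on the log2 scale (SE 0.15, adjusted p = 0.0033), and its groups did not overlap. Psmb10, which takes the place of Psmb7, had 27.1, 25.8 and 25.5 CPM against 20.3, 23.5 and 23.7 CPM and fell by 0.22 (SE 0.07, adjusted p = 0.024). Psmb10 no longer passed without cadmium replicate 1 (adjusted p = 0.13) or control replicate 1 (adjusted p = 0.076). Psmb8, which takes the place of Psmb5, had 8.78, 7.13 and 7.78 CPM against 6.62, 7.62 and 7.25 CPM, a change of -0.14 ± 0.11 that did not pass the test (adjusted p = 0.32). In FPKM, Psmb9 stood at 1.86, 2.26 and 1.96 percent of Psmb6 in the control libraries and 1.39, 1.14 and 1.21 percent in the cadmium libraries. Psmb10 stood at 10.5 ± 0.660 percent of Psmb7 in control and 8.65 ± 0.680 percent in cadmium-treated cells. Psmb8 stood at 4.64, 3.82 and 3.71 percent of Psmb5 in the control libraries and 3.10, 3.34 and 3.41 percent in the cadmium libraries. Psmb11 had 1, 0 and 0 counts in the control libraries and 0, 0 and 5 in the cadmium libraries and was not tested.

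All 5 genes of other activators and the inhibitor changed, in both directions, beside 45.5% of all genes tested. Psme3, which encodes the activator of nuclear proteasomes, went up from 136 ± 4.33 to 174 ± 6.26 CPM (log2 fold change 0.35 ± 0.04, adjusted p = 1.5e-05). Psme4, which encodes a large nuclear activator, went up from 72.1 ± 2.40 to 84.5 ± 2.35 CPM (log2 fold change 0.23 ± 0.05, adjusted p = 0.0012). Psme1 and Psme2, which form the interferon-inducible activator, fell by 0.27 (adjusted p = 0.0021) and 0.20 (adjusted p = 0.017). Reads of Psme2 could be shared with its retrocopy. Psmf1, which encodes an inhibitor of the isolated core, fell by 0.17 (adjusted p = 0.019). Psme2 no longer passed without cadmium replicate 3 (adjusted p = 0.098), and neither did Psmf1 without any 1 cadmium library or control replicate 3 (adjusted p = 0.050 to 0.065).

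Of the 20S assembly chaperones 3 of 5 rose, namely Psmg4 at 0.26 ± 0.08 (adjusted p = 0.015), Psmg1 at 0.25 ± 0.07 (adjusted p = 0.011) and Psmg2 at 0.18 ± 0.06 (adjusted p = 0.028). Psmg3 and Pomp did not pass the test, and 23.1% of all genes tested rose. Psmg4 no longer passed without cadmium replicate 2 (adjusted p = 0.067) or control replicate 1 (adjusted p = 0.065), and neither did Psmg2 without cadmium replicate 2 or 3 or control replicate 2 (adjusted p = 0.068 to 0.14). Of 7 genes for proteins that bind the proteasome 5 rose. Among them were Txnl1, a thioredoxin-like protein of the regulatory particle, from 118 ± 5.27 to 149 ± 4.02 CPM (log2 fold change 0.34 ± 0.05, adjusted p = 3.1e-05), and Usp14, a deubiquitinase, from 90.8 ± 3.52 to 112 ± 2.64 CPM (log2 fold change 0.30 ± 0.05, adjusted p = 9.5e-05). The ubiquitin ligase Ube3c rose by 0.20 ± 0.04 (adjusted p = 0.0022).

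Of the shuttle receptors, which carry ubiquitin-tagged proteins to the particle, 3 of 5 described here rose. The share of all genes tested that rose, 23.1%, stands beside each count in this paragraph. Rad23b went up from 248 ± 8.30 to 298 ± 1.63 CPM (log2 fold change 0.27 ± 0.04, adjusted p = 6.4e-05). Ubqln4 and Ubqln1 rose by 0.32 ± 0.05 (adjusted p = 7.3e-05) and 0.14 ± 0.04 (adjusted p = 0.013). Ubqln1 no longer passed without cadmium replicate 3 (adjusted p = 0.092). Of the p97 unfoldase and its cofactors 5 of 9 rose, among them Nploc4 at 0.25 ± 0.04 (adjusted p = 0.00018), Faf1 at 0.24 ± 0.06 (adjusted p = 0.0028) and Plaa at 0.17 ± 0.05 (adjusted p = 0.013). With limma on log2(FPKM + 1) that count was 2, and Plaa no longer passed (adjusted p = 0.053). Of the ubiquitin genes and activating enzymes 2 of 5 described here rose. The activating enzyme Uba1 rose by 0.17 ± 0.04 (adjusted p = 0.0015), and Rps27a, which encodes ubiquitin fused to a ribosomal protein, rose by 0.19 ± 0.04 (adjusted p = 0.0020).

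Among 9 tested genes for regulators of proteasome gene transcription, 3 rose and 2 fell. Of all genes tested, 23.1% rose and 22.4% fell, so these counts are near the shares of the whole table. Nfe2l1, which encodes the factor that raises subunit genes under proteasome shortage, had 256, 255 and 252 CPM in the control libraries and 291, 303 and 298 CPM in the cadmium libraries. Its groups did not overlap, at a log2 fold change of 0.22 ± 0.04 (adjusted p = 0.00022). Ngly1, which encodes the enzyme that removes sugar chains from that factor during its activation, had 33.0, 34.1 and 34.2 CPM against 26.7, 25.9 and 26.7 CPM and fell by 0.35 (SE 0.06, adjusted p = 0.00017). Hsf1, the heat shock factor gene, rose by 0.25 ± 0.06 (adjusted p = 0.0048), and Nfe2l2, the gene of the antioxidant factor NRF2, rose by 0.15 ± 0.05 (adjusted p = 0.021). Stat3 fell by 0.14 (adjusted p = 0.014). The genes of the 3 NF-Y subunits, Nfya, Nfyb and Nfyc, did not pass the test, with log2 fold changes of 0.08 ± 0.05, 0.06 ± 0.06 and 0.05 ± 0.05. Nfe2l3 did not pass the low-count filter. Nfe2l2 no longer passed without cadmium replicate 1 (adjusted p = 0.065) or 3 (adjusted p = 0.099) and with limma (adjusted p = 0.068 and 0.073), and neither did Stat3 without cadmium replicate 1 (adjusted p = 0.053) or 3 (adjusted p = 0.080).

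**Figure D4:**
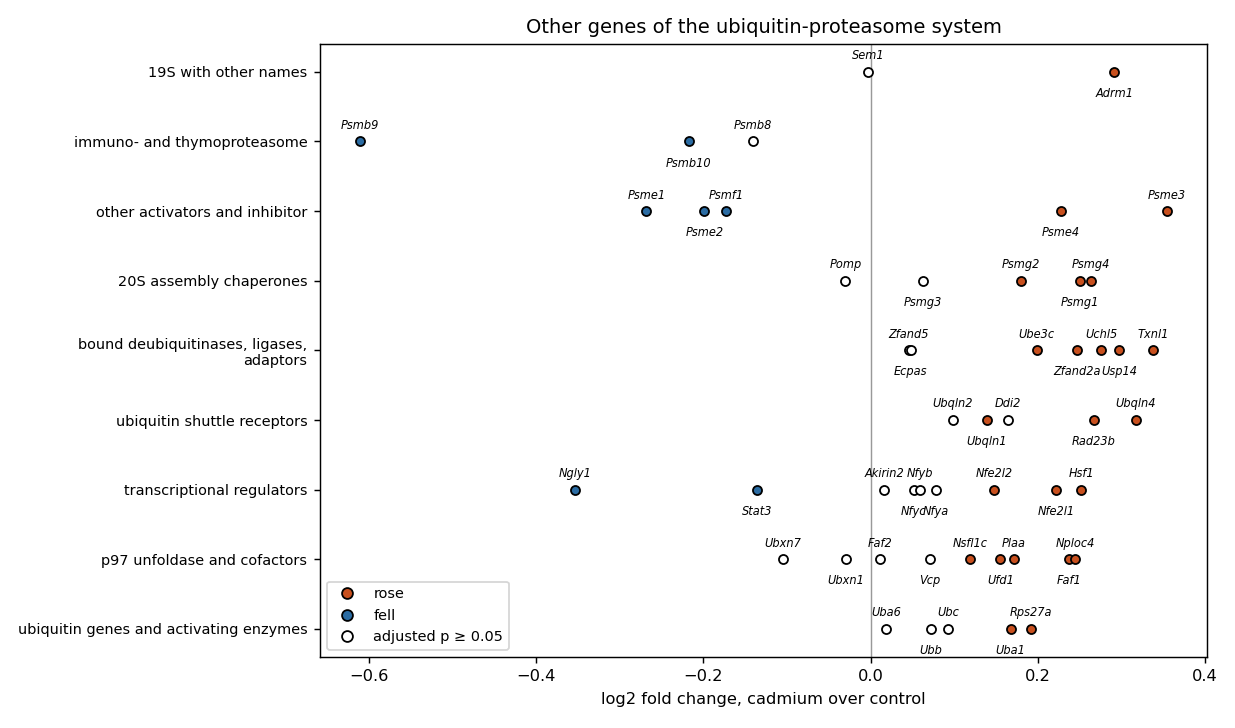
edgeR log2 fold changes of cadmium over control for tested genes of the ubiquitin-proteasome system that are no members, 1 point a gene, by list. Psmb9, at -0.61, is the lowest and Psme3, at 0.35, the highest.

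The labelled cell type was checked against marker genes. The neural stem cell markers Nes, Sox2, Vim and Fabp7 were present, and the 8 stem cell markers summed to 6226 to 6534 CPM in the control and 6982 to 7169.8 CPM in the cadmium libraries, with 3 that rose and 5 that fell. The 7 astrocyte markers summed to 2948 to 3185 CPM in the control and 2322 to 2371 CPM in the cadmium libraries, with 6 that fell and 1, Slc1a3, that rose. The oligodendrocyte markers summed to 348 to 442 and 205 to 216 CPM, with 4 of 5 tested that fell, and Pdgfra, which is also in the fibroblast list, is among them. The neuron markers summed to 29.1 to 33.7 and 28.0 to 32.6 CPM, of which Tubb3 made up 20.4 CPM on average in the control and 22.3 CPM in the cadmium libraries. Of the 6 neuron markers tested Dcx, a gene of young neurons, fell by 0.94 on the log2 scale (adjusted p = 0.00048), and the other 5 did not pass the test. The fibroblast markers summed to 99.8 to 113 and 50.5 to 55.9 CPM, with 2 of 3 tested that fell. Nearly all of this sum was Pdgfra, at 104 CPM on average in the control and 52.5 CPM in the cadmium libraries. Col1a1 and Col1a2 averaged 0.863 and 0.807 CPM in the control libraries. The endothelial and mural markers summed to 4.09 to 4.96 and 2.49 to 3.14 CPM, with Cdh5 at 0 in every library, and 2 of 3 tested fell, Rgs5 and Pdgfrb. The 4 microglia markers in the table summed to 0.359 to 0.486 and 0.213 to 0.518 CPM, with Ptprc at 0 in every library. Mitochondrial genes held 3.19% to 3.45% of counts in the control and 3.06% to 3.43% in the cadmium libraries. The part of these shifts in the proteasome values was not tested.

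A further limit is shared sequence. In the GENCODE gene annotation, 7 members overlap another gene of the table, 6 of them on the opposite strand. No source used here states whether counting used strand. Psmb7 overlaps Nek6, which rose by 0.18 (adjusted p = 0.0041), and Psmd13 overlaps Sirt3, which fell by 0.24 (adjusted p = 0.023). Retrocopies of Psma5, Psmb5, Psmb6 and Psmb7 are annotated and could share reads with them.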

How the data were processed

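The deposited counts are whole reads for each gene. The submitters' processing notes list build GRCm39, DESeq2 1.22.2, HTSeq 0.11.2, HISAT2 2.1.0 and fastp 0.20.1. For the annotation and the strand setting, the sources used here give nothing. The FPKM values deposited by the authors follow from the counts, the library totals and a single length for each gene, to within 1.63e-08 in relative terms.

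The members, gene lists and tests were chosen with earlier results of these data known. The test on the counts was that of edgeR 4.0.16 under R 4.3.3 (robust quasi-likelihood F test, TMM scaling, no covariates). A low-count filter (filterByExpr with its count floor at 10 and total floor at 15) kept 14369 of 25241 genes. P-values are two-sided and adjusted by Benjamini-Hochberg over all genes tested, and a gene rose or fell at an adjusted p below 0.05. The SE of a log2 fold change is its size divided by the square root of F. CPM are counts scaled to a common total by TMM, given per library in replicate order. On simulated counts for the cadmium comparison (14253 genes, 50 changed at each fold) the test recovered 6% of 1.1-fold, 82% of 1.3-fold and 94% of 1.5-fold changes, so small changes could be missed. Among its calls on simulated counts 5.44% were false. The simulation changed a far smaller share of genes than the 45.5% called in the real data. Its changed genes were also drawn from a range of levels that reaches below that of the tested members. Its recovery therefore need not hold for the members. Among the members, Psma4 was called at a fold of 1.07.

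Alternatives were DESeq2 1.42.0, limma 3.58.1 on log2(FPKM + 1) and log2(FPKM + 0.1), other scalings, other filters, a replicate block and the removal of each library. Motifs were searched in RefSeq promoter windows. Named with values were the catalytic members, the 4 core and 4 regulatory members with the smallest p among those that rose, the members with the largest and smallest change, those under the filter, and from each other list up to 3 genes that rose and 3 that fell with the smallest p. The other members were named to account for all of them. No p was computed for a list. Some genes of the other lists are not reported here.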

Additional observations from a re-analysis of the deposited data

How the results depend on the processing

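Over all alternatives no member fell. The number of members that rose was 20 and lay between 18 and 22 in the 9 alternatives that kept all libraries, with 19 in DESeq2, and between 15 and 21 when 1 library was left out. The number of genes changed was 6534, between 5370 and 6162 with 1 library left out and between 5686 and 6853 otherwise. Of the 20 members that rose, 13 kept the call in all 15 alternatives and 7 lost it in at least 1. The median log2 fold change of all members was 0.14, with 0.13 to 0.14 when 1 library was left out and 0.15 without Psma8 and the chaperones Psmd5, Psmd9 and Psmd10, and that of regulatory members was 0.16, with 0.15 to 0.17. Without a filter on low counts these medians were 0.16 and 0.18, while the median of all genes moved to 0.04. The core median lay between 0.08 and 0.11 with 1 library left out. The difference of core minus regulatory was -0.06, with -0.09 to -0.05 when 1 library was left out.

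The labels do not say whether replicate numbers pair the samples. Deviations from the group means correlated at 0.02, 0.05 and -0.01 for same-numbered libraries. For other pairs the values lay between -0.05 and 0.03, so no pairing was visible, which cannot exclude one. With a replicate block 19 members rose and 6509 genes changed. The sign reversed for Psmc3 without control replicate 2, for Psmd8 without cadmium replicate 1 (0.0034) or control replicate 2, and for Sem1 with DESeq2 (0.0014), RLE factors (0.0014), no filter (0.016) and 4 libraries left out in turn. With 1 library left out, the log2 fold change lay between -0.012 and 0.053 for Psmc3, between -0.064 and 0.0034 for Psmd8 and between -0.044 and 0.018 for Sem1. None of these had passed the test, and the cause was not tested.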
